A study of Mus musculus with 12 samples.

Results

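Inter-chromosomal contacts between the telomere-distal ends of the mouse autosomes were counted in Hi-C and HiChIP of embryonic stem cells (ESC) and neuronal committed cells (NCC). The distal window of a chromosome was its last 10 Mb, counted back from the highest anchor end of that chromosome in the ESC Hi-C data, and a member was a pair of anchors on different autosomes that both start in a distal window. In ESC Hi-C, 37620 of 2055207 inter-chromosomal autosomal interactions were members, out of 10267665 interactions of all kinds. In NCC Hi-C, 42625 of 2414851 were members. FGFR1 HiChIP held 4222 members of 284249 in ESC and 5021 of 392088 in NCC, and CTCF HiChIP held 1778 of 117517 and 1839 of 127659. The members join 19 windows in every possible pair of chromosomes, and all pairs held read pairs in all 6 libraries. The ESC were of the E14Tg2A line and grew on gelatin with 100 U/mL LIF. The NCC came from the same line after 48 h of 1 μM retinoic acid without LIF, so that the removal of LIF and the addition of retinoic acid cannot be told apart. Each cell type and assay had 2 replicates, which are merged in the deposited tables, so there is 1 pooled library for each combination and no error between replicates. The tests below compare pooled libraries, not the conditions, and the 95% intervals cover counting error only. Contact data hold no expression, so the cell types were not checked against marker genes.

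Hi-C joins the ends of DNA fragments that lie close together in the fixed nucleus and counts the joined fragments by sequencing. HiChIP adds an antibody step, so that contacts near the bound protein are enriched. Here the antibodies were against CTCF, the zinc finger protein that holds chromatin loops and marks the borders of domains, and FGFR1, a growth factor receptor whose nuclear form binds chromatin. The autosomes of the mouse carry their centromere close to one end, which is the start of the sequence. Each thus has a proximal end beside the centromere and a distal end far from it. Telomeres, which close the ends of chromosomes, are arrays of a short repeat bound by the shelterin proteins. Ends of different chromosomes can share a part of the nucleus, as centromeric heterochromatin of several mouse chromosomes does in the chromocenters.

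The windows reach close to the chromosome ends. In the assembly GRCm38 (mm10), the highest anchor ended between 1609 bases (chromosome 10) and 125226 bases (chromosome 14) before the last assembled base. Reads from telomeric repeats cannot be placed on 1 chromosome, so the contacts below are those of the DNA next to them.

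Read pairs between distal windows were more frequent than the windows' totals predict in both cell types and all 3 assays. The expectation gave each 10 Mb window a factor, fitted so that the factors return the inter-chromosomal read-pair ends of every one of the 241 windows. ESC Hi-C held 37765 read pairs between distal windows and NCC Hi-C 42761. Observed over expected was 1.33 (95% Poisson interval 1.31–1.34) in ESC Hi-C and 1.22 (1.21–1.23) in NCC Hi-C. In FGFR1 HiChIP it was 1.39 (1.35–1.43) from 4236 read pairs in ESC and 1.26 (1.22–1.29) from 5039 in NCC. For CTCF HiChIP the value was 1.36 (1.296–1.42) from 1783 read pairs in ESC and 1.31 (1.25–1.37) from 1841 in NCC. The interval lies above 1 in all 6 libraries. Because the excess itself enters the totals, these ratios are lower than a rate fitted together with the window factors, which was 1.38 in ESC Hi-C and 1.26 in NCC Hi-C.

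The excess was one of like ends. Distal windows met proximal windows of other chromosomes less often than expected, at 0.654 (0.646–0.663) in ESC Hi-C and 0.763 (0.754–0.771) in NCC Hi-C. They met interior windows at 0.984 (0.981–0.987) and 0.987 (0.984–0.990). Proximal windows met each other at 1.75 (1.73–1.78) in ESC Hi-C and 1.48 (1.46–1.51) in NCC Hi-C. Relative to the distal-distal value, the proximal-proximal value was 1.32 times as high in ESC (1.299–1.34, exact binomial test, two-sided, adjusted p = 3.09e-211) and 1.21 times in NCC (1.19–1.24, adjusted p = 2.05e-95). Interior windows met each other at 1.00 in both. The fit holds this value near 1, since such pairs held 65.6% of the inter-chromosomal read pairs in ESC Hi-C and 65.9% in NCC Hi-C. Since the factors return each window's total, an excess in some kinds of pair must be offset by a deficit in others. All p-values of this kind were adjusted by Benjamini-Hochberg over 15 comparisons.

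**Figure D1:**
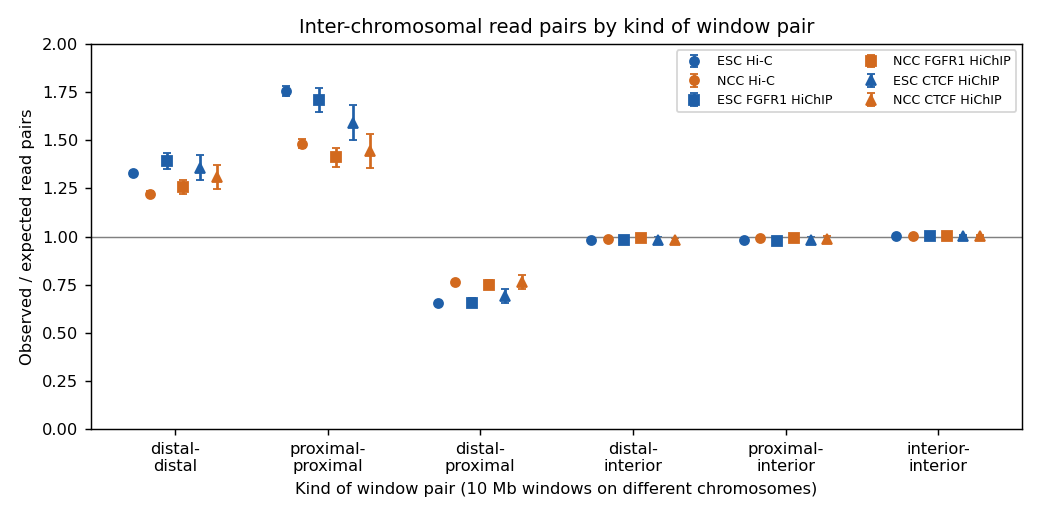
Observed over expected read pairs (vertical axis) for the 6 kinds of inter-chromosomal window pair (horizontal axis), in 3 assays (symbols) and 2 cell types (colours), with bars for the 95% Poisson interval of the pooled library. Distal-distal values lie between 1.22 and 1.39 and distal-proximal values below 1 in every library.

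The distal-distal excess was lower in NCC than in ESC. The NCC value over the ESC value was 0.921 in Hi-C (0.908–0.934, adjusted p = 4.15e-31) and 0.904 in FGFR1 HiChIP (0.868–0.942, adjusted p = 2.52e-06), both by the exact binomial test. In CTCF HiChIP the ratio was 0.963 (0.902–1.03), which did not pass the exact test (adjusted p = 0.284). With windows of 20 Mb the CTCF ratio was 0.936 and passed the exact test (adjusted p = 0.000405). The NCC over ESC ratios of the assays did not differ from each other by a test of that difference. CTCF HiChIP over Hi-C was 1.05 (adjusted p = 0.278), FGFR1 HiChIP over Hi-C 0.982 (0.409) and CTCF over FGFR1 HiChIP 1.07 (0.278), by an exact conditional test over 3 comparisons.

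Other kinds of pair with an end window also moved toward 1 in NCC. The factors return each window's total, so a smaller distal-distal excess comes with smaller deficits in other kinds of pair. The next ratios are thus tied to the distal-distal ratio and are not separate results. The proximal-proximal ratio of NCC over ESC was 0.845 in Hi-C (0.828–0.863, exact binomial test, adjusted p = 7.29e-57), and the distal-proximal ratio was 1.17 (1.15–1.19, adjusted p = 2.87e-69). The share of inter-chromosomal read pairs among autosomal read pairs was higher in NCC in each assay. It was 10.0% in ESC and 11.5% in NCC for Hi-C, 10.8% and 12.4% for FGFR1 HiChIP, and 9.85% and 12.3% for CTCF HiChIP. The part of this share in the lower NCC excess was not tested.

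The antibody libraries were close to Hi-C of the same cells. FGFR1 HiChIP over Hi-C was 1.05 in ESC (1.01–1.08, exact binomial test, adjusted p = 0.00734) and 1.03 in NCC (0.999–1.06, adjusted p = 0.0701). CTCF HiChIP over Hi-C was 1.02 in ESC (0.975–1.07, exact binomial test, adjusted p = 0.359) and 1.07 in NCC (1.02–1.12, adjusted p = 0.00739). The distal windows make up 7.91% of the autosomal length covered by anchors. They held 11.8% of the inter-chromosomal ends in ESC Hi-C and 12.04% in NCC Hi-C, against 10.3% and 10.1% in FGFR1 HiChIP and 10.5% in CTCF HiChIP of either cell type. The expectation takes these shares into account.

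The distal windows were rich in genes, and the excess was nearly the same with gene density in the fit. Their median was 10.4 protein-coding genes per Mb, from 2.6 to 20.9, against a median of 6.6 in the 203 interior windows. Their median GC content was 43.7% against 41.6%, and 12 of 19 lay above the interior median for genes and 14 of 19 for GC content. In a Poisson regression over all 27416 inter-chromosomal window pairs, the distal-distal rate was 1.33 in ESC Hi-C without gene density and 1.33 with it. In NCC Hi-C it was 1.22 without and 1.22 with it. In the same fit with gene density, the rate was 1.39 and 1.25 in FGFR1 HiChIP and 1.35 and 1.31 in CTCF HiChIP of ESC and NCC. The term for the product of both densities, which rises when both windows are rich or both are poor, had a rate of 1.101 per unit, with densities scaled to their standard deviation, in ESC Hi-C and 1.08 in NCC Hi-C. With GC content added as a covariate, the distal-distal rate was 1.27 in ESC Hi-C and 1.185 in NCC Hi-C. Window pairs share windows, so these rates are a description with no test. The dispersion of the counts around the fit was 7.15 in ESC Hi-C and 4.91 in NCC Hi-C, where counting error alone gives about 1. Window pairs thus vary by more than the counting intervals show. The exact binomial tests also take in counting error only, so their p-values can be too small.

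Each of the 19 distal windows took part. For every window, the read pairs with the other distal windows exceeded the expectation in ESC and NCC Hi-C, with the interval above 1 for all 19 in each. The chromosome 2 window was the highest in both, at 1.57 (1.52–1.62) from 4237 read pairs in ESC and 1.37 (1.33–1.41) from 4487 in NCC. Chromosome 5 followed in ESC at 1.44 (1.41–1.48), chromosome 12 at 1.42 (1.37–1.46) and chromosome 7 at 1.42 (1.38–1.454), and these 3 do not differ beyond their intervals. Chromosome 19, the shortest autosome, was the lowest in both, at 1.14 (1.101–1.18) in ESC and 1.07 (1.03–1.102) in NCC. Just above it in ESC were chromosome 15 at 1.18 (1.15–1.21), chromosome 18 at 1.18 (1.12–1.24) and chromosome 14 at 1.18 (1.13–1.23), whose intervals overlap each other and that of chromosome 19. The order of the windows was not that of their gene density. The window of chromosome 15 holds 20.1 genes per Mb and that of chromosome 18 holds 2.6, yet both had the same value to 3 digits.

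The NCC value was below the ESC value in 19 of 19 windows in Hi-C. The ratio went from 0.874 (0.838–0.912) for chromosome 2 to 0.993 (0.938–1.05) for chromosome 14, with a median of 0.928, and 14 of the 19 intervals lie below 1. Chromosomes 12 at 0.891 (0.852–0.932) and 11 at 0.892 (0.865–0.920) came next to chromosome 2. Every read pair counts for both of its windows, so the windows do not replicate one another. In FGFR1 HiChIP the ratio was below 1 in 18 of 19 windows, with chromosome 18 at 1.02, and in CTCF HiChIP in 12 of 19.

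**Figure D2:**
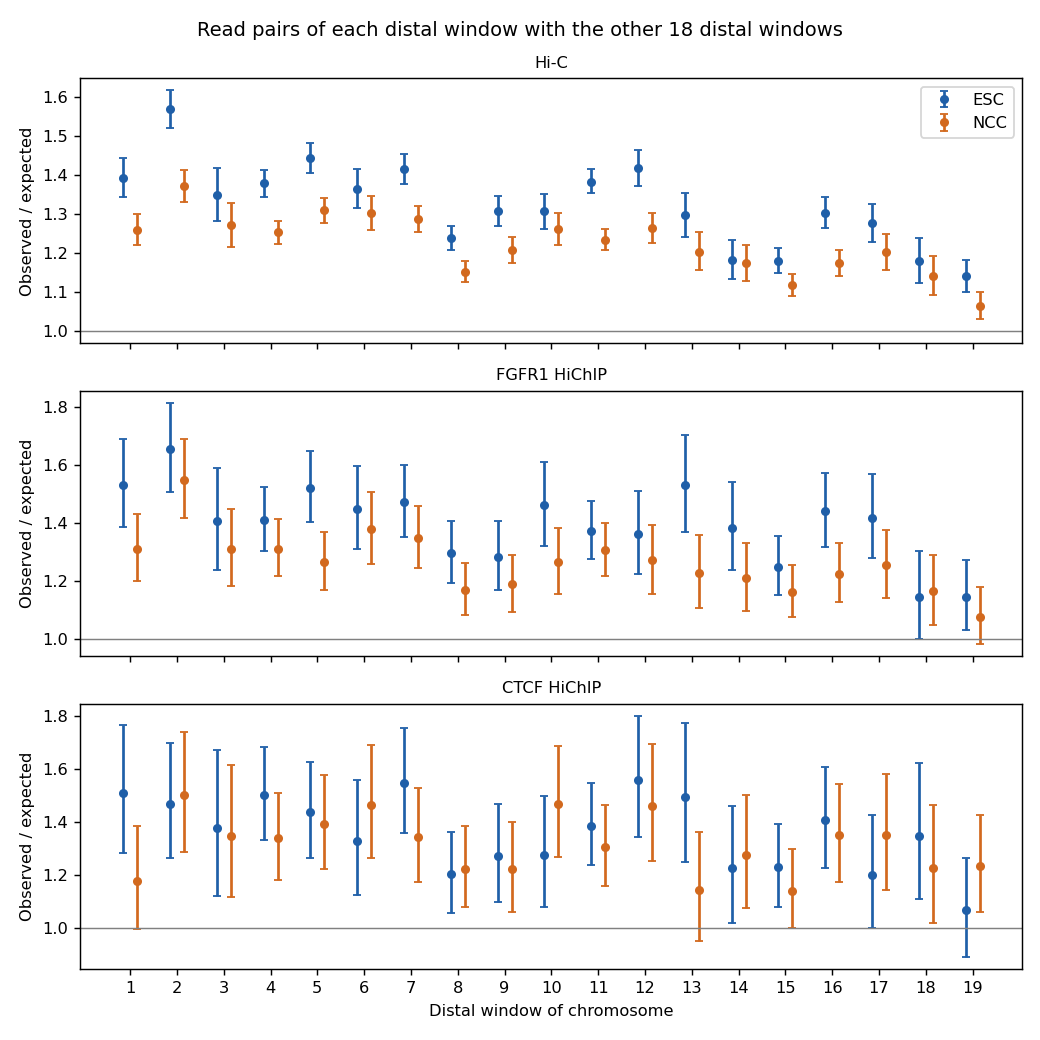
Observed over expected read pairs of each distal window with the other distal windows (vertical axis), by chromosome (horizontal axis), for ESC and NCC in 3 panels by assay, with bars for the 95% Poisson interval. In Hi-C all points lie above 1 and each NCC point lies below the ESC point of the same chromosome.

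Of the distal-distal chromosome pairs, 159 (93.0%) lay above 1 in ESC Hi-C, with a median of 1.31 and a range from 0.869 to 2.13. In NCC Hi-C, 155 (90.6%) lay above 1, with a median of 1.23 and a range from 0.856 to 1.82. The interval lay above 1 for 111 pairs in ESC and 112 in NCC, and below 1 for 0 pairs in ESC and 1 in NCC, chromosomes 11 and 19. A pair held from 42 to 902 read pairs in ESC Hi-C and from 55 to 1029 in NCC Hi-C. In FGFR1 HiChIP, 149 pairs lay above 1 in each cell type, with a median of 22 read pairs a pair in ESC and 27 in NCC. With the CTCF antibody, 135 and 134 pairs did so, with medians of 9 and 10 read pairs. The order of the pairs was alike in both cell types, with Spearman's rho of 0.722 and Pearson's r of 0.743 between ESC and NCC Hi-C over all distal pairs, which share windows and are not independent.

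Of the 8 highest pairs in ESC Hi-C, all but chromosomes 2 and 12 joined members of chromosomes 1 to 7. Chromosomes 1 and 6 held 176 read pairs where 82.8 were expected, a value of 2.13 (1.82–2.46), and 1.81 (1.58–2.06) in NCC. Chromosomes 2 and 4 held 483 read pairs against 234 expected, at 2.06 (1.88–2.26), and 1.73 (1.58–1.89) in NCC. Chromosomes 1 and 3 were at 2.02 (1.63–2.49) in ESC and 1.447 (1.17–1.77) in NCC, and chromosomes 2 and 12 at 1.93 (1.70–2.18) and 1.303 (1.13–1.496). Chromosomes 2 and 5 were at 1.89 in ESC and 1.58 in NCC, 2 and 6 at 1.86 and 1.52, 2 and 3 at 1.85 and 1.34, and 2 and 7 at 1.82 and 1.67. The intervals of the first 3 pairs overlap, so their order is not resolved. All 8 pairs were chosen for their high ESC value, which favours a lower value in NCC. In FGFR1 HiChIP of ESC, with 17 to 42 read pairs each, the 8 pairs lay between 1.56 and 2.48. When the expectation was set within each chromosome pair, from the ends that each window sends to the other chromosome, the 8 values in ESC fell to between 1.48 and 1.71. With that expectation, all pairs lay above 1 in ESC Hi-C and 166 in NCC Hi-C.

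The 4 lowest pairs in ESC Hi-C were chromosomes 8 and 18 at 0.869 (0.716–1.05), 3 and 8 at 0.902 (0.732–1.101), 11 and 18 at 0.911 (0.764–1.08), and 11 and 19 at 0.915 (0.809–1.03). None has an interval below 1. They were chosen for their low ESC value, which favours a higher value in NCC. Within their own chromosome pair, they lay between 1.01 and 1.15. In NCC, 11 and 19 was at 0.881 (0.786–0.984), and the lowest pair was 3 and 11 at 0.856. Chromosome 11, with the window richest in genes, thus stood in low pairs with 18 and 19 and also in high ones, such as 11 and 15 at 1.62 in ESC and 1.35 in NCC.

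**Figure D3:**
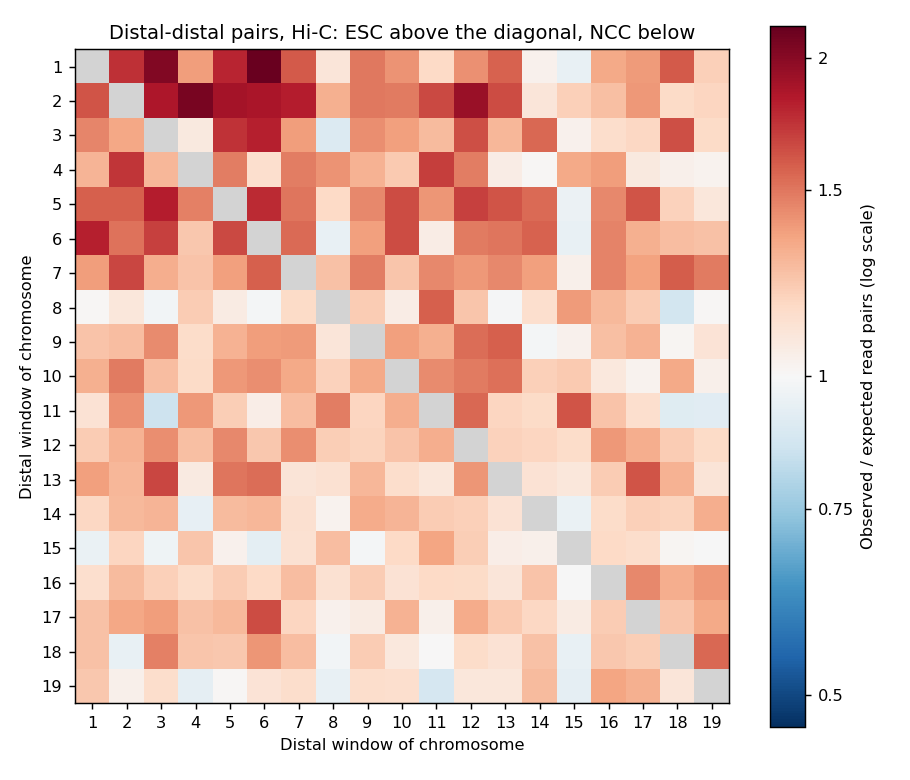
Observed over expected read pairs in Hi-C for each pair of distal windows, on a logarithmic colour scale, with chromosomes on both axes, ESC above the diagonal and NCC below. The strongest red lies among chromosomes 1 to 7 on both sides of the diagonal, and pairs of chromosomes 8, 11, 15 and 19 hold most of the blue cells.

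The excess was higher among long chromosomes, a pattern noticed in these data, so the groups were formed after the values were seen. For the 15 pairs among the 6 longest chromosomes, the distal-distal value was 1.67 (1.61–1.72) in ESC Hi-C and 1.52 (1.48–1.57) in NCC Hi-C. For the 78 pairs with 1 of the 6 longest it was 1.34 (1.32–1.36) and 1.22 (1.20–1.23), and for the 78 pairs with none 1.27 (1.25–1.28) and 1.18 (1.17–1.20). FGFR1 HiChIP had 1.74 (1.57–1.91) against 1.32 (1.26–1.38) in ESC, and 1.54 (1.41–1.69) against 1.20 (1.15–1.24) in NCC. Gene density in the fit left the ESC Hi-C values at 1.68 and 1.26. With the expectation set within each chromosome pair, they came closer, at 1.43 and 1.33 in ESC Hi-C and 1.34 and 1.22 in NCC Hi-C. Interior windows of the same groups were at 1.02 and 1.01 in ESC Hi-C, but the fit holds the value of such pairs near 1. Proximal windows had 2.11 and 1.67. Distal with interior windows had 1.05 and 0.961 in ESC Hi-C and 1.04 and 0.974 in NCC Hi-C. Distal with proximal windows went the other way, at 0.576 and 0.693 in ESC Hi-C. Spearman's rho with the summed length was 0.425 in ESC Hi-C and 0.453 in NCC Hi-C over all pairs. With the summed log gene density of both windows it was 0.06 and -0.04. The pairs share windows, and these correlations are a description.

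**Figure D4:**
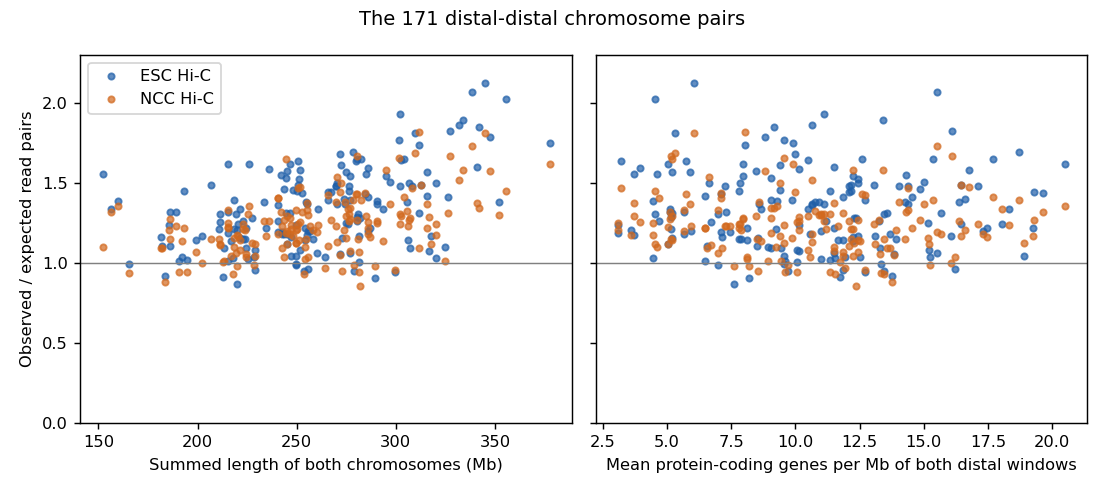
Observed over expected read pairs in Hi-C of the distal-distal chromosome pairs (vertical axis) against the summed length of both chromosomes in Mb (left) and the mean number of protein-coding genes per Mb of both distal windows (right), with a point for each pair in ESC and in NCC. Values rise with length, with rho of 0.425 and 0.453, and show no order by gene density.

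Contacts were densest at the very end. In slices of 2 Mb, the last 2 Mb of each chromosome met the last 2 Mb of other chromosomes at 2.18 times the expectation in ESC Hi-C (2.09–2.28, 2000 read pairs) and at 1.95 times in NCC Hi-C (1.87–2.03, 2218 read pairs). FGFR1 HiChIP had 2.52 (2.23–2.84) in ESC and 2.303 (2.08–2.55) in NCC, and CTCF HiChIP 2.10 (1.73–2.53) and 2.09 (1.73–2.51). The next slices, from 2 to 10 Mb and each with its own kind, had 1.297 in ESC Hi-C and 1.20 in NCC Hi-C. The last slice over these was 1.68 times as high in ESC Hi-C (1.60–1.77, exact binomial test, adjusted p = 7.55e-82) and 1.62 times in NCC Hi-C (1.545–1.70, adjusted p = 1.08e-79). In the 4 HiChIP libraries it was 1.48 to 1.90 times as high, with adjusted p between 3.11e-22 and 0.000817 by the same test over 9 comparisons. In the last 2 Mb, NCC over ESC was 0.892 in Hi-C (0.840–0.948, exact binomial test, adjusted p = 0.00034), 0.913 in FGFR1 HiChIP (0.780–1.07, adjusted p = 0.28) and 0.997 in CTCF HiChIP (0.762–1.31, adjusted p = 1).

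In Hi-C and FGFR1 HiChIP the end slices of all 19 chromosomes lay above 1. In CTCF HiChIP chromosome 15 was the exception, at 0.962 (0.440–1.83) in ESC and 0.965 (0.441–1.83) in NCC from 9 read pairs each. In ESC Hi-C, the last 2 Mb of a chromosome had between 1.74 (chromosome 4, 1.56–1.94) and 3.19 (chromosome 13, 2.66–3.796) times the expected read pairs with the other end slices. In NCC Hi-C, chromosome 13 was again the highest at 2.45 (2.04–2.92), and chromosome 9 was the lowest at 1.59. The end slices of chromosomes 9 and 13 held 28 read pairs against 2.42 expected in ESC Hi-C, and 20 against 2.99 in NCC Hi-C. Of these, 11 and 5 in ESC and 8 and 4 in NCC came from repeated anchor pairs with the same anchor in Tmem267 on chromosome 13. The chromosome 13 value without these anchor pairs was not tested. Other repeated anchor pairs held 1 of 2 read pairs between the end slices of chromosomes 8 and 10 in ESC Hi-C and 10 of 16 in NCC Hi-C. For chromosomes 9 and 19 they held 7 of 20 and 2 of 12, and for chromosomes 11 and 19 they held 5 of 27 and 0 of 22. The end-slice values without them were not tested either. Of the pairs of end slices, which had a median expectation of 3.68 read pairs in ESC, 148 lay above 1 in ESC and 146 in NCC. Leaving out any 1 chromosome kept the ESC value between 2.085 and 2.298. Counting each interaction once, which can change little because nearly all distal-distal interactions were seen once, gave 2.20. Leaving out the 1% of anchors with most inter-chromosomal ends gave 2.32. Without any anchor in the last 2 Mb, the distal-distal value of the 10 Mb windows was still 1.31 in ESC Hi-C and 1.22 in NCC Hi-C.

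Beyond the last 2 Mb the profile was nearly level before it came down to about 1. In ESC Hi-C the slices between 2 and 16 Mb lay between 1.22 and 1.37 with no steady order. Slices from 14 to 16 Mb met each other at 1.33 (1.27–1.39), slices from 18 to 20 Mb at 1.12 (1.05–1.20) and slices from 38 to 40 Mb at 0.984 (0.896–1.08). In NCC Hi-C the same slices had 1.19 (1.14–1.24), 1.03 (0.963–1.097) and 0.992 (0.909–1.08), and the slice from 32 to 34 Mb was higher again at 1.15 (1.06–1.24). Slices at 18 to 20 Mb still met the 10 Mb distal windows at 1.18 (1.16–1.20) in ESC and 1.11 (1.09–1.13) in NCC. With bins of 5 Mb, the last 5 Mb met each other at 1.44 in ESC Hi-C and 1.32 in NCC Hi-C, and met the bin from 40 to 45 Mb at 1.02 and 1.00.

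**Figure D5:**
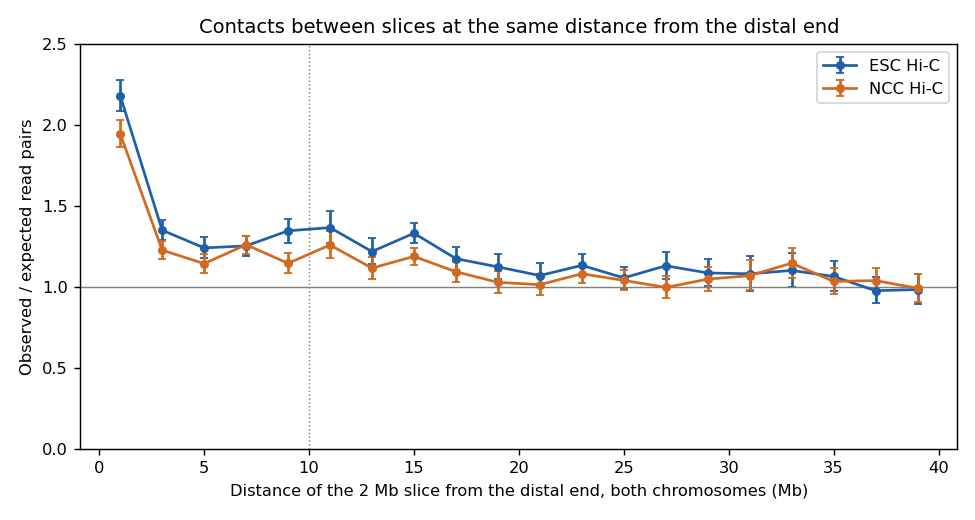
Observed over expected read pairs in Hi-C between 2 Mb slices at the same distance from the distal end of different autosomes (vertical axis) against that distance in Mb (horizontal axis), for ESC and NCC, with bars for the 95% Poisson interval and a dotted line at the edge of the 10 Mb window. The first slice stands at 2.18 in ESC and 1.95 in NCC, and both lines come to about 1 by 40 Mb.

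For single chromosome pairs the libraries did not resolve the difference between ESC and NCC at 10 Mb. The exact binomial test was run on all 27416 inter-chromosomal window pairs with Benjamini-Hochberg adjustment over all of them. It called 9 pairs lower in NCC (0.0328%) and 2 higher (0.0073%), and 0 of the distal pairs. At an unadjusted p under 0.05, 29 distal pairs were lower in NCC and 1 was higher, chromosomes 9 and 14 (0.985 in ESC, 1.33 in NCC), named after its value was seen. Over all window pairs, 1056 were lower and 1227 higher at that level, and among proximal-proximal pairs 42 were lower and 0 higher. The ratio was below 1 in 124 of the distal pairs (72.5%) and in 48.0% of all window pairs, with a median log2 ratio of -0.10 against 0.01. The pair nearest to the threshold was chromosomes 2 and 12, with 249 read pairs in ESC and 201 in NCC and a ratio of 0.676 (exact binomial test, adjusted p = 0.0585). Without anchors in the last 2 Mb, that pair was the 1 distal pair called, at 1.90 in ESC and 1.03 in NCC (ratio 0.539, exact binomial test, adjusted p = 0.0254). In that table, 8 of all window pairs were lower (0.0292%) and 2 higher (0.0073%).

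With windows of 20 Mb, 23 of the distal pairs were called lower in NCC and 0 higher. Over all 6796 window pairs of that size, 107 were lower (1.57%) and 127 higher (1.87%). The 23 pairs joined 13 chromosomes, and chromosome 5 was in 8 of them, chromosomes 2, 4 and 11 in 6 each and chromosome 12 in 5. Their ratios went from 0.803 for chromosomes 2 and 3, with 457 read pairs in ESC and 462 in NCC (exact binomial test, adjusted p = 0.0353), to 0.897 for chromosomes 4 and 7, with 1601 and 1798 read pairs (adjusted p = 0.0487). The lowest adjusted p was that of chromosomes 9 and 11, which fell from 1.44 to 1.19 (ratio 0.829, exact binomial test, adjusted p = 5.04e-05). All 23 pairs remained above 1 in NCC, the lowest being chromosomes 4 and 16 at 1.04.

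Bins of 1 Mb showed where within the windows the contacts lay. Each bin was measured by its read-pair ends that go to distal windows of other autosomes. Of 190 bins, 177 had at least 50 expected ends in ESC Hi-C, and 169 of these lay above 1, with a median of 1.299 and a range from 0.790 to 1.91. In NCC Hi-C, 164 of 172 did so, with a median of 1.23. Of the 8 highest bins in ESC Hi-C, 7 were the last Mb of their chromosome, on chromosomes 13, 11, 2, 7, 3, 6 and 1, and the other was the second last of chromosome 2. The last Mb of chromosome 13, which holds the repeated Tmem267 anchor, was at 1.91 (1.67–2.17) in ESC Hi-C and 1.58 (1.39–1.78) in NCC Hi-C. That of chromosome 11 was at 1.84 (1.71–1.97) and 1.47 (1.38–1.57), that of chromosome 2 at 1.84 (1.72–1.96) and 1.54 (1.44–1.65), and that of chromosome 7 at 1.72 (1.61–1.84) and 1.56 (1.48–1.66). These 8 were chosen for their high ESC value, which favours a lower value in NCC. Of the 170 bins with at least 50 expected ends in both Hi-C libraries, 145 were lower in NCC, and the NCC interval lay wholly below the ESC interval for 21.

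Genes were measured by the ends within 50 kb of the gene body that go to distal windows of other autosomes, so that neighbouring genes share ends. Of 1981 protein-coding genes in the distal windows with such ends, 1757 had at least 20 expected in ESC Hi-C. Their median value was 1.36 in ESC and 1.24 in NCC, and 1700 lay above 1 in ESC, while the median over all 16586 protein-coding genes with that expectation was 1.02 in both. No gene was called between ESC and NCC Hi-C, 0 of 20144 (0%) in either direction, by the exact binomial test with adjustment over all of them. At an unadjusted p under 0.05, 148 of the distal genes were lower in NCC and 6 higher, against 567 lower and 520 higher over all 20144 genes. The genes named below were chosen for a high or low ESC Hi-C value, which favours a less extreme value in NCC.

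Among neural and patterning regulators, the 4 highest genes lay in the last Mb of chromosomes 2 and 7. All 55 neural and patterning regulators of the list lay in the windows, and of the 53 with enough expected ends, 52 lay above 1 in ESC and 50 in NCC, with a median of 1.41 in ESC and 1.23 in NCC. Myt1, a zinc finger factor of neural progenitors, 0.216 Mb from the end of chromosome 2, had 109 ends and a value of 2.17 (1.79–2.62) in ESC Hi-C and 129 ends and 1.72 (1.43–2.04) in NCC Hi-C. Its neighbour Sox18, a factor of endothelial development, was at 2.06 (1.74–2.42) and 1.59 (1.31–1.91). Fgf3, an FGF ligand of inner ear and tail development, was at 1.86 (1.56–2.20) and 1.59 (1.35–1.85), and its neighbour Fgf15, an FGF ligand that also acts as a hormone of the gut, at 1.83 (1.54–2.16) and 1.79 (1.53–2.10). The lowest 2 lay on chromosome 19. Tcf7l2, a transcription factor of Wnt signalling, was at 1.08 (0.902–1.28) and 1.07 (0.922–1.24), and Vax1, a homeobox factor of the ventral forebrain, at 0.802 (0.556–1.12) and 1.09 (0.786–1.46).

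Of 6 imprinted protein-coding genes in the windows, which are expressed from 1 parental copy, all lay above 1 in ESC and NCC, with medians of 1.35 and 1.28. Igf2, the fetal growth factor, was at 1.53 (1.18–1.94) in ESC and 1.299 (1.04–1.60) in NCC, and the lowest was Ascl2, a factor of placental development, at 1.18 (0.919–1.48) and 1.15 (0.906–1.44). Of 5 DNA repair genes, all lay above 1, with medians of 1.57 in ESC and 1.26 in NCC. Brca2, which loads the recombinase in homologous recombination, was at 1.72 (1.41–2.08) and 1.195 (0.958–1.47), and Rtel1, a helicase that keeps telomeres intact, at 1.605 (1.32–1.93) and 1.26 (1.03–1.53). Fanca, of the Fanconi anemia complex, was the lowest at 1.17 (0.977–1.40) and 1.21 (1.03–1.42).

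Of 15 widely expressed genes, 14 lay above 1 in ESC and 12 in NCC, with medians of 1.302 and 1.27. The highest of the list was Eef1a2, a translation elongation factor on chromosome 2 that is known mainly from neurons, heart and skeletal muscle rather than from all tissues. It was at 2.01 (1.63–2.46) and 1.48 (1.20–1.80), and Fasn, the fatty acid synthase, at 1.63 (1.34–1.96) and 1.27 (1.05–1.52). The lowest was Mki67, a marker of dividing cells 9.63 Mb from the end of chromosome 7, at 0.763 (0.519–1.08) and 1.24 (0.957–1.58). Of the clustered families, 8 genes of keratins and chemokine receptors had enough expected ends, and all 8 lay above 1 in both, with medians of 1.29 and 1.11. Ccr1, a chemokine receptor, was the highest at 1.504 (1.17–1.91) and 1.32 (1.02–1.68), and Krt5, a keratin of basal epithelium, the lowest at 1.035 (0.721–1.44) and 1.06 (0.785–1.40). The chromosome 9 anchors of the repeated pairs with Tmem267 lie within 50 kb of Ccr1. Those pairs held 11 and 5 read pairs in ESC Hi-C and 8 and 4 in NCC Hi-C, beside 68 and 65 ends of Ccr1. Its value and rank without them were not tested. No member of the 5 lists was called between ESC and NCC (0%), and the lists stand beside a median of 1.36 and 1.24 over all distal genes.

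Nearly all distal-distal interactions were seen once. Only 97 of 37620 in ESC Hi-C (0.258%) had a score of 2 or more, against 0.326% of all inter-chromosomal interactions, and 97 of 42625 in NCC Hi-C (0.228%) against 0.229%. The pair of anchors with most read pairs joined chr5:146260375-146261916, in Cdk8, a kinase of the Mediator complex, with chr9:123461218-123462804, in Lars2, the mitochondrial leucyl-tRNA synthetase. It had 24 read pairs in ESC Hi-C, 23 in NCC Hi-C, 4 and 9 in FGFR1 HiChIP and 0 and 1 in CTCF HiChIP, and both anchors share at most 12 identical bases in a row. Some of the other most repeated pairs join anchors that share a long stretch and some do not. The Lars2 anchor and an anchor of chromosome 19 had 7 read pairs in ESC Hi-C and 2 in NCC Hi-C and share at most 11 bases in a row. An anchor 35704 bases from Ccr1 on chromosome 9 and an anchor in Tmem267 on chromosome 13 had 11 read pairs in ESC Hi-C and 8 in NCC Hi-C and share 44 identical bases in a row. The same Tmem267 anchor and a nearby chromosome 9 anchor, 24114 bases from Ccr1, had 5 and 4 read pairs and share at most 13 bases in a row. An anchor pair of chromosomes 8 and 10 had 1 read pair in ESC Hi-C and 10 in NCC Hi-C and shares 185 bases. The first 100 of these, chr8:129263422-129263521 and chr10:130542147-130542246, are the same on the forward strand of both chromosomes in GRCm38 and are given in capitals as an example of anchors with a shared stretch.
Shared by chromosomes 8 and 10: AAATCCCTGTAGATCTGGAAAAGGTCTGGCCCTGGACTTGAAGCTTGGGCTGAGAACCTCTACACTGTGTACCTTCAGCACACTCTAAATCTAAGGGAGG
Anchor pairs of chromosomes 11 and 19 (5 read pairs in ESC and 0 in NCC) and of chromosomes 1 and 11 (4 and 0) share 108 and 114 bases. Whether reads were placed on the wrong copy was not tested for any of the repeated pairs. Only both anchors of a pair were compared with each other. A short shared run, as for the anchors in Cdk8 and Lars2, thus does not show that an anchor has no copy elsewhere. With each interaction counted once, whatever its score, the NCC over ESC ratio of distal-distal contacts in Hi-C was 0.920. Since nearly all interactions were seen once, that setting could change little, and it keeps any misplaced read that was seen once.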

How the data were processed

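Hi-C and HiChIP for FGFR1 and CTCF were done in ESC and NCC, 2 replicates each, 12 samples in 6 pooled libraries. The authors removed duplicates and kept valid pairs with HiC-Pro on mm10, assigned them to anchors with hichipper at default settings, and merged the replicates. Versions are not given in the sources used here. The deposited score was read as a count of read pairs for each pair of anchors, not filtered on q, and was not normalized here. The authors describe a normalization of valid pair numbers between ESC and NCC. Whether the deposited counts carry it was not tested. Anchors begin and end on GATC sites of GRCm38, and coordinates were read as 1-based. No sample column of the tables was left unmapped.

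Chromosomes 1 to 19 were used. The libraries hold 1065662 to 21279750 read pairs, of which 119301 to 2431059 join different autosomes. At this depth the distal-distal total of ESC Hi-C has an interval of 1.31–1.34, while a 10 Mb pair holds from 42 read pairs. PCR reads carry no molecular identifiers, so intervals cover counting error only. Each autosome was divided into a distal window of 10 Mb, a proximal window of 10 Mb from its first anchor, and interior blocks. Window factors were fitted iteratively to the inter-chromosomal totals, and an expected number is the product of 2 factors. Genes came from GENCODE vM21 and sequences from the RefSeq GRCm38.p6 assembly. Gene density entered as log(genes per Mb + 0.5) of both windows, as a sum and a product. Intervals are exact Poisson for values and Clopper-Pearson for ratios. Ratios were tested by a two-sided exact binomial test with Benjamini-Hochberg adjustment and called at an adjusted p under 0.05. No count test with replicates could be run.

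Named are the 8 highest and 4 lowest chromosome pairs in ESC Hi-C with at least 30 expected read pairs (all but 1 pair), the 8 highest 1 Mb bins with at least 50 expected ends, and examples from the 4 highest and 2 lowest genes of each list with at least 20 expected ends, plus called items. Members, lists and rules were chosen with earlier results of these data known. Of the lists, Dlk1, Meg3 and Rtl1 lay outside the windows, and H19, Ighm, Ighe and Ighg1 are not annotated as protein-coding and were not measured, and 1 listed gene and some sequences are not reported here. Steps were tested on simulated data with counting error only, so the simulation does not cover the larger dispersion of the real counts. Python 3.11.15 was used with numpy 2.4.6, scipy 1.17.1, pandas 2.3.3, statsmodels 0.14.6 and matplotlib 3.10.9.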

Additional observations from a re-analysis of the deposited data

How the results depend on the processing

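No paired analysis was possible because the deposited tables merge both replicates of each cell type and assay, and leaving out a replicate was not run for the same reason. Values follow in the order ESC and NCC Hi-C, ESC and NCC FGFR1 HiChIP, ESC and NCC CTCF HiChIP. With windows of 5 Mb, distal-distal observed over expected was 1.443, 1.317, 1.549, 1.403, 1.464 and 1.426, and with gene density 1.417, 1.298, 1.522, 1.389, 1.44 and 1.408. With windows of 20 Mb it was 1.266, 1.165, 1.297, 1.189, 1.289 and 1.207, and with gene density 1.27, 1.167, 1.3, 1.189 and 1.209 for all but ESC CTCF HiChIP. With 20 Mb the CTCF ratio of NCC over ESC was 0.9361, past the threshold of the exact binomial test (adjusted p = 0.000405), and 23 distal pairs were lower in NCC. With GC content beside gene density the rates were 1.27, 1.185, 1.318, 1.204 and 1.286 for all but NCC CTCF HiChIP. Without the 1% of anchors with most inter-chromosomal ends, ESC Hi-C was at 1.345, and 1.343 with gene density. Chosen after seeing the data, the fit of class rates together with window factors gave 1.377, 1.258 and 1.444 in ESC Hi-C, NCC Hi-C and ESC FGFR1 HiChIP. Without the last 2 Mb, also chosen after seeing the data, ESC Hi-C was at 1.313 and NCC FGFR1 HiChIP at 1.223, with gene density 1.311 and 1.218, and 1 distal pair was lower in NCC. The cause of these shifts was not tested.

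Leaving out each chromosome in turn gave 1.31 to 1.347, 1.215 to 1.236, 1.373 to 1.42, 1.237 to 1.278, 1.342 to 1.386 and 1.292 to 1.325, and with gene density 1.31 to 1.349, 1.214 to 1.236, 1.372 to 1.41, 1.233 to 1.271, 1.337 to 1.376 and 1.288 to 1.326. The NCC over ESC ratio was then 0.9159 to 0.9282 in Hi-C (adjusted p at most 1.57e-20), 0.8927 to 0.9129 in FGFR1 HiChIP (at most 5.33e-05) and 0.946 to 0.9824 in CTCF HiChIP (up to 0.617), all by the exact binomial test. Across other settings, 506 of 538 observed over expected values of named pairs, genes and bins in Hi-C kept their side of 1. For single chromosome pairs, of which none was called at 10 Mb, 12 crossings of 1 are listed here. They cover the NCC over ESC ratios, and observed over expected only where its interval at 10 Mb excluded 1. With 5 Mb, chromosomes 2 and 3 were at 0.9469 and 11 and 19 at 1.083 in NCC Hi-C, and the NCC over ESC ratio was 0.7713 for 11 and 18 and 0.8775 for 3 and 8. With 20 Mb that ratio was 1.008 for 11 and 19, 0.8972 for 11 and 18 and 0.9845 for 8 and 18. It was 0.9914 for 11 and 18 without the top anchors, 0.9733 for 3 and 8 with the expectation within the chromosome pair, and 1.006 for 2 and 6 and 1.031 for 11 and 19 without the last 2 Mb. Within the chromosome pair, 11 and 19 was at 1.022 in NCC Hi-C. Depth limits single pairs, since a 10 Mb pair held as few as 42 read pairs in ESC Hi-C and 1 in ESC CTCF HiChIP, and pairs of end slices had a median expectation of 3.68 read pairs in ESC Hi-C.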
